A study of Mus musculus with 11 samples.

Results

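The replication-dependent histone genes are the 70 genes of the deposited gene table whose mouse symbols begin with Hist1h, Hist2h, Hist3h or Hist4h, out of 54686 entries. The rule reads the symbol and no measured value. They comprised 6 H1, 20 H2A, 19 H2B, 12 H3 and 13 H4 genes, of which 67 are annotated as protein-coding and 3 as pseudogenes. Chromosome 13 carries 56 of them, chromosome 3 carries 10, chromosome 11 carries 3 and chromosome 6 carries 1 (GENCODE M21, build GRCm38). The RNA came from B16-OVA, a mouse melanoma line that expresses ovalbumin, in a study of how YAP and TAZ, the transcriptional co-activators at the end of the Hippo pathway, bear on the transcriptome after heat shock. The 11 libraries formed 4 groups, which were heated cells transfected with pooled YAP and TAZ siRNAs (n = 3), unheated cells with the same siRNAs (n = 3), heated cells under control siRNA (n = 2, replicates 1 and 3) and unheated cells under control siRNA (n = 3). Heat was 45 °C for 1 h, given 48 h after transfection and followed by 6 h at 37 °C. Replicate 2 of the heated control cells was not analysed here. The labels do not state whether replicates came from separate cultures, and p-values then reflect the spread among these libraries alone, which may be technical.

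Replication-dependent histone genes supply the bulk of the H1, H2A, H2B, H3 and H4 proteins that package newly made DNA, and their RNA normally accumulates in S phase and is lost when DNA synthesis stops. Most lack introns, and their RNA usually ends just after a short conserved stem-loop instead of in a poly(A) tail. The stem-loop-binding protein SLBP holds this hairpin and, with the U7 small nuclear ribonucleoprotein, directs the cut after it. Some members can also use a downstream poly(A) site, which gives a longer, polyadenylated RNA, as described for histone genes in cells that leave the cycle. Per the labels' protocols the libraries were made from total RNA extracted with Trizol, using a NEBNext Ultra kit. Whether poly(A) RNA was selected is not given in the sources used here, so low values of a member cannot be told apart from RNA without a tail that was not captured.

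The hairpin was looked for in the annotated transcripts as 16 bases whose first 6 read GG, 3 pyrimidines and T and pair fully with the last 6, around a loop of 4 bases that starts with T. It was found after the stop codon in at least 1 annotated transcript of 46 of the 54 members with an annotated 3′ UTR (85.2%), against 16 of 21132 other coding genes with one (0.0757%). The form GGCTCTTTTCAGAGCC was found in 26 members, and the other 20 carried one of 7 related forms. The 7 examples shown are members on which the results turn, with the hairpin in capitals and 5 bases on either side (GENCODE M21 transcripts, GRCm38, coordinates of the hairpin).
Hist1h1c, chr13:23739512-23739527, plus strand: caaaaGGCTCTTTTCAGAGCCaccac
Hist1h2ae, chr13:23570668-23570683, minus strand: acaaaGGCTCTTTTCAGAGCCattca
Hist1h2bg, chr13:23571843-23571858, plus strand: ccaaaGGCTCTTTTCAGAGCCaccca
Hist1h3e, chr13:23561903-23561918, minus strand: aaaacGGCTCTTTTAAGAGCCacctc
Hist1h4b, chr13:23757366-23757381, plus strand: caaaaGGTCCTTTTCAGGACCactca
Hist1h4c, chr13:23698089-23698104, minus strand: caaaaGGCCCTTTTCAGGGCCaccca
Hist1h4i, chr13:22040966-22040981, minus strand: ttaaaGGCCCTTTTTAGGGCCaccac
The examples of types H1, H2A and H2B share 1 form, the Hist1h3e loop differs from it, and the H4 examples differ in the stem.

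Only 21 members reached 1 FPKM (fragments per kilobase of gene, scaled to library size) in at least 2 of the 11 libraries and were tested. These were 2 H1, 4 H2A, 3 H2B, 5 H3 and 7 H4 genes. Of these 21, 8 reached that level in at least 2 of the 6 unheated libraries, and 13 passed through heated libraries alone. The 13 were all 5 tested H3 genes, 6 of the 7 tested H4 genes, Hist1h1e and Hist1h2ab. Among the 8, Hist1h2af passed through unheated libraries alone. The other 49 members stayed low. Their highest single value was 1.49 FPKM, for Hist1h2bb, and 3 members (Hist1h1b, Hist2h2aa1 and Hist1h2bm) were listed at 0 in every library. The highest untested members of the other types were Hist1h1t (up to 1.22 FPKM), Hist2h3c2 (1.00), Hist1h2ag (0.973) and Hist1h4k (0.857). At the threshold, Hist1h3a and Hist2h3c1 reached 1 FPKM in 2 libraries and were kept, while Hist1h1t, Hist1h2bb and Hist2h3c2 did so in 1 library and were not. The highest value of any member was 15.7 FPKM, for Hist1h2bc. Only Hist1h1c, Hist1h2bc, Hist1h2bg, Hist2h2be and Hist1h4i were at or above 1 FPKM in all 11 libraries.

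Histone genes of 1 type are near-copies of each other. In 29 of the 70 members fewer than 50% of the 100-base windows of the annotated transcripts were found in no other gene, and in 5 members none were, so reads can be split between members in such a table. Among the tested members this touches Hist2h3c1 (0% unique windows), Hist1h2af (20.7%), Hist1h4b (28.2%) and Hist1h2ab (47.6%) most. Hist1h4d and Hist2h2be were fully unique. Depth, read from the smallest steps between low values, came to 30.5 to 43.9 M steps per library, and a step may stand for a read or a fragment. The smallest tested values, such as those of Hist1h4f and Hist1h3a in unheated libraries, lie within a few steps of 0. Yap1 was at 2.26 to 3.02 FPKM and Wwtr1, which encodes TAZ, at 1.40 to 1.83 FPKM in the 6 YAP/TAZ siRNA libraries, against 5.79 to 15.6 and 5.37 to 8.47 FPKM in the 5 control siRNA libraries. All 8 melanoma markers were tested and summed to 6462 to 8426 FPKM, while the 4 fibroblast, 3 endothelial and 3 keratinocyte markers were all below the filter, and of the 5 leukocyte markers only Lyz2 passed it (up to 2.48 FPKM).

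Summed over all 70 members, histone FPKM stood at 76.9, 65.6 and 72.7 in heated and 56.3, 50.1 and 55.3 in unheated YAP/TAZ siRNA libraries. Under control siRNA the sums were 55.5 and 54.0 in heated and 35.7, 28.9 and 30.0 in unheated libraries. The heated sums exceeded every unheated sum under the same siRNA, and every YAP/TAZ siRNA sum exceeded every control siRNA sum at the same heat. The types behaved differently, as the plot of summed levels shows.

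**Figure D1:**
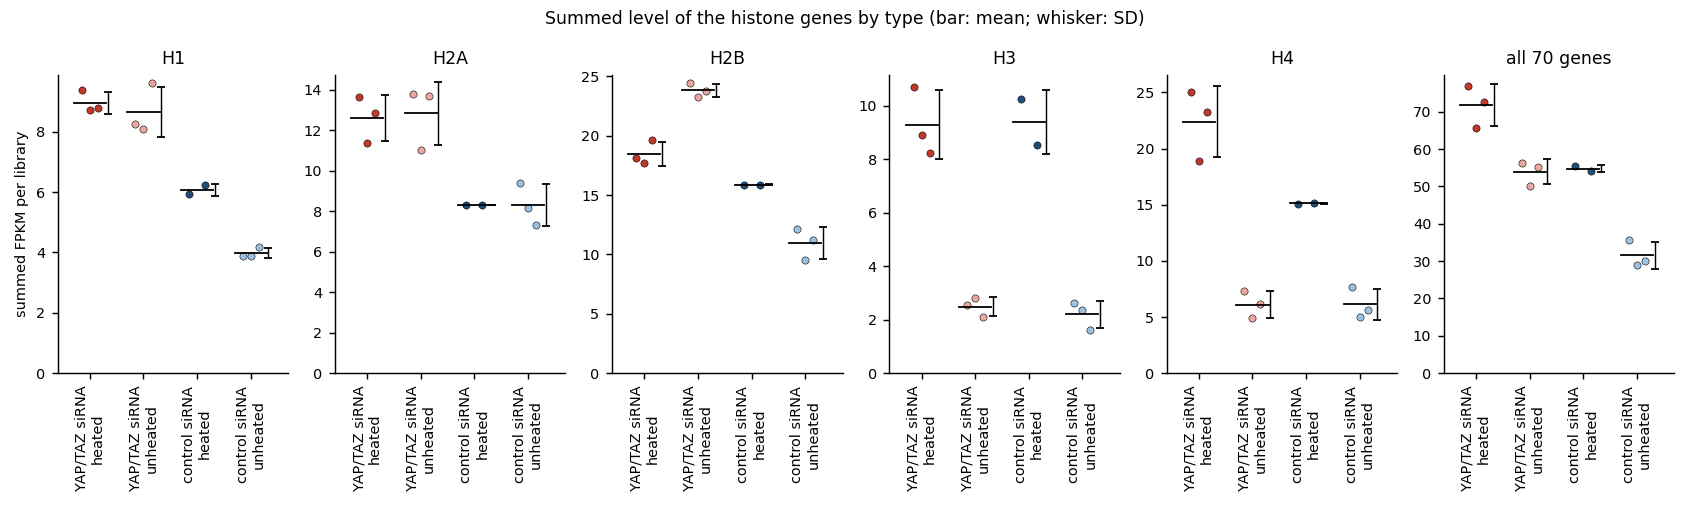
Summed FPKM (vertical axis) of the members of each histone type and of all 70 genes in each of the 11 libraries, by group along the horizontal axis; points are libraries, bars are means and whiskers are SD. The H3 and H4 sums of heated libraries lie above those of all unheated libraries, whereas H2A and H2B sums do not.

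Type H3 and type H4 carried most of the difference with heat. H3 genes summed to 10.7, 8.92 and 8.21 FPKM in heated and 2.55, 2.79 and 2.11 FPKM in unheated YAP/TAZ siRNA libraries. Under control siRNA they summed to 10.2 and 8.54 FPKM with heat and 2.61, 2.37 and 1.63 FPKM without. The ratio of heated to unheated means was 3.73 under YAP/TAZ siRNA and 4.26 under control siRNA, and no heated library overlapped an unheated one. H4 genes summed to 25.1, 18.9 and 23.2 FPKM in heated and 7.31, 4.90 and 6.13 FPKM in unheated YAP/TAZ siRNA libraries, against 15.1 and 15.1 FPKM in heated and 7.71, 5.003 and 5.65 FPKM in unheated control siRNA libraries. The H4 ratios were 3.67 and 2.47, and every heated YAP/TAZ siRNA library exceeded both heated control libraries. H3 genes made up 12.9 ± 1.43% (SD) of the histone FPKM in heated and 4.64 ± 0.883% in unheated YAP/TAZ siRNA libraries, and 17.1 ± 1.88% and 6.97 ± 1.41% in heated and unheated control libraries.

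Types H1 and H2B, and to a lesser extent H2A, were higher under YAP/TAZ siRNA without heat. Single genes carried much of this. In unheated libraries the mean of Hist1h1c was 8.27 FPKM under YAP/TAZ siRNA and 3.65 FPKM under control siRNA (H1 sum 8.65 and 3.98). Hist1h2bc stood at 15.1 and 5.52 FPKM (H2B sum 23.8 and 10.95), and Hist3h2a at 8.19 and 2.61 FPKM (H2A sum 12.8 and 8.30). Hist3h2a differed by more than the H2A sum did. H2B genes summed to 24.4, 23.3 and 23.8 FPKM in unheated YAP/TAZ siRNA cells, against 12.1, 9.51 and 11.2 FPKM in unheated control siRNA libraries, a ratio of means of 2.18. After heat the sums were 18.2, 17.7 and 19.6 FPKM under YAP/TAZ siRNA and 15.9 and 15.8 FPKM under control siRNA. Heated H2B sums were thus below the unheated ones under YAP/TAZ siRNA (ratio 0.775) and above them under control siRNA (ratio 1.45). H1 genes summed to 8.27, 8.09 and 9.60 FPKM in unheated YAP/TAZ siRNA libraries and 3.89, 3.87 and 4.17 FPKM in unheated control libraries, again a ratio of 2.18. With heat the H1 sums were 8.71 to 9.36 FPKM under YAP/TAZ siRNA and 5.94 and 6.22 FPKM under control siRNA, so H1 differed with heat under control siRNA too (heated over unheated, ratio 1.53, without overlap). H2A sums overlapped between heated and unheated libraries under both siRNAs, at 11.4 to 13.6 and 11.04 to 13.8 FPKM under YAP/TAZ siRNA and 8.30 to 8.33 and 7.34 to 9.40 FPKM under control siRNA. Under YAP/TAZ siRNA this hid opposite changes. The mean of Hist3h2a was 2.51 FPKM with heat and 8.19 FPKM without, and that of Hist1h2ae 4.42 and 1.32 FPKM. Every YAP/TAZ siRNA library exceeded every control siRNA library at the same heat in H2A, with ratios of 1.55 without heat and 1.52 after it, and the H4 ratio after heat was 1.48. These sums are descriptions without a test.

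Gene by gene, values were compared as log2(FPKM + 1) in 1 limma fit over all 12626 genes that reached 1 FPKM in at least 2 libraries, and a gene was called at a Benjamini-Hochberg adjusted p under 0.05. Changes below are differences on that scale ± standard error, which understate the change of low genes. In heated against unheated cells under YAP/TAZ siRNA, 15 of the 21 tested members rose (18.6% of all tested genes did) and 5 fell (31.7% of all), with a median of 0.77 against −0.09 over all genes. Under control siRNA 16 of 21 rose (12.4% of all) and 2 fell (36.9% of all), with a median of 0.63 against −0.16. Because 13 members passed the filter only through heated libraries, these counts are partly set by the filter. Without a filter, over the 67 members and 29695 genes above 0 somewhere, 23 members rose (8.78% of all genes) and 4 fell (14.0%) under YAP/TAZ siRNA, and 27 rose (13.9%) and 2 fell (15.6%) under control siRNA, with medians of 0.11 and 0.14. Of the 8 members that passed the filter in unheated libraries, 2 rose and 5 fell with heat under YAP/TAZ siRNA, and 3 rose and 2 fell under control siRNA. The 8 include Hist1h2af, which passed through unheated libraries alone, so these counts too are partly set by the filter.

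H4 is the partner of H3 in the core of the nucleosome. Without a filter, 8 of the 13 H4 genes rose with heat under YAP/TAZ siRNA (8.78% of all genes did), 7 of 13 rose under control siRNA (13.9% of all) and none fell. Of the 7 tested H4 genes 7 and 6 rose, but 6 of the 7, all except Hist1h4i, had passed the filter through heated libraries alone. Their calls below are partly set by the filter. Hist1h4c (chr13:23697635-23698454, minus strand) was at 3.56, 2.92 and 3.19 FPKM in heated and 0.382, 0.316 and 0.320 FPKM in unheated YAP/TAZ siRNA libraries. Its control siRNA levels were 1.36 and 1.44 FPKM with heat and 0.380, 0.207 and 0.178 FPKM without. The unheated groups overlapped, and the heated groups did not. The change was 1.65 ± 0.08 (adjusted p = 2.16e-06) under YAP/TAZ siRNA and 0.94 ± 0.09 (adjusted p = 3.21e-05) under control siRNA, and the difference between the 2 responses was called (0.72 ± 0.12, adjusted p = 0.00197). At a pseudocount of 0.1 that difference was 0.80 with adjusted p = 0.067 and was not called.

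Hist1h4f was at 2.32, 1.44 and 2.45 FPKM in heated and 0.275, 0 and 0.130 FPKM in unheated YAP/TAZ siRNA libraries, and at 2.54 and 2.08 FPKM in heated and 0.180, 0.0668 and 0.113 FPKM in unheated control libraries. It showed the largest rise of the 21 under control siRNA, 1.56 ± 0.16 (adjusted p = 4.17e-05), beside 1.43 ± 0.14 (adjusted p = 8.1e-05) under YAP/TAZ siRNA. Its near-zero unheated values mean that these changes depend on the pseudocount. Hist1h4h was at 3.66, 2.67 and 3.47 FPKM in heated and 0.539, 0.420 and 0.892 FPKM in unheated YAP/TAZ siRNA libraries, against 2.55 and 2.05 FPKM in heated and 0.576, 0.362 and 0.286 FPKM in unheated control libraries. It rose by 1.40 ± 0.14 (adjusted p = 7.34e-05) and by 1.23 ± 0.15 (adjusted p = 0.00015). Hist1h4d was at 1.96, 1.73 and 1.47 FPKM in heated and 0.377, 0.400 and 0.231 FPKM in unheated YAP/TAZ siRNA libraries, against 1.15 and 1.55 FPKM in heated and 0.404, 0.410 and 0.270 FPKM in unheated control libraries. As a member with fully unique sequence, Hist1h4d gives a rise that does not rest on shared windows, 1.02 ± 0.10 (adjusted p = 6.86e-05) under YAP/TAZ siRNA and 0.78 ± 0.11 (adjusted p = 0.000328) under control siRNA. It too had passed the filter through heated libraries alone, so these calls are partly set by the filter.

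Hist1h4b was at 3.86, 3.14 and 4.70 FPKM in heated and 0.957, 0.216 and 0.428 FPKM in unheated YAP/TAZ siRNA libraries. In control siRNA libraries it was at 1.35 and 2.35 FPKM with heat and 0.439, 0.291 and 0.574 FPKM without. It rose by 1.69 ± 0.20 (adjusted p = 0.000196), the largest rise of the 21 under YAP/TAZ siRNA, and by 0.97 ± 0.22 (adjusted p = 0.00551) under control siRNA, where the call was lost without heated control replicate 3 (0.72). Hist1h4a ranged from 1.05 to 1.97 FPKM with heat and 0.255 to 0.465 FPKM without under YAP/TAZ siRNA, and from 1.57 to 2.17 and 0.112 to 0.510 FPKM under control siRNA, and it rose under both. Hist1h4i stood apart from the other H4 genes because it was well above 1 FPKM without heat. It was at 6.17, 4.35 and 5.76 FPKM in heated and 3.62, 2.69 and 3.41 FPKM in unheated YAP/TAZ siRNA libraries, and at 3.78 and 2.75 FPKM in heated and 4.70, 2.77 and 3.57 FPKM in unheated control libraries. Its heated and unheated values overlapped under control siRNA (−0.13 ± 0.19, adjusted p = 0.625), and it rose by 0.60 ± 0.17 under YAP/TAZ siRNA (adjusted p = 0.0185), a call lost without heated YAP/TAZ replicate 1 (0.51) or 3 (0.55) or unheated YAP/TAZ replicate 2 (0.50). The difference between its 2 responses missed the threshold (0.72 ± 0.26, adjusted p = 0.0555), and passed it without heated YAP/TAZ replicate 2 (0.85) or unheated control replicate 2 (0.87).

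Without a filter, 7 of the 12 H3 genes rose with heat under each siRNA (8.78% of all genes under YAP/TAZ siRNA and 13.9% under control siRNA) and none fell. The 5 tested H3 genes had all passed the filter through heated libraries alone, so their heat calls below are partly set by the filter. None of the 5 was called for a difference between the responses, though Hist1h3g passed without heated YAP/TAZ replicate 3 (0.39) and Hist2h3c1 without heated YAP/TAZ replicate 1 (−0.41) or heated control replicate 3 (−0.42). Hist1h3g was at 1.86, 1.90 and 1.14 FPKM in heated and 0.113, 0.183 and 0.158 FPKM in unheated YAP/TAZ siRNA libraries, against 1.26 and 1.54 FPKM in heated and 0.270, 0.183 and 0.329 FPKM in unheated control libraries. Every heated value exceeded every unheated one, with changes of 1.18 ± 0.12 (adjusted p = 8.38e-05) and 0.93 ± 0.13 (adjusted p = 0.000342). Hist1h3e was at 1.62, 1.46 and 1.79 FPKM in heated and 0.575, 0.615 and 0.485 FPKM in unheated YAP/TAZ siRNA libraries, and at 1.90 and 1.35 FPKM in heated and 0.303, 0.372 and 0.135 FPKM in unheated control libraries. It rose by 0.75 ± 0.10 (adjusted p = 0.00042) and 1.05 ± 0.11 (adjusted p = 6.77e-05). Hist2h3c1, which shares every window with other genes, was at 1.00, 0.699 and 0.823 FPKM in heated and 0.220, 0.329 and 0.289 FPKM in unheated YAP/TAZ siRNA libraries, against 1.07 and 0.876 FPKM in heated and 0.136, 0.0404 and 0.0571 FPKM in unheated control libraries. It rose by 0.52 ± 0.08 (adjusted p = 0.000844) and 0.87 ± 0.09 (adjusted p = 5.28e-05). Hist1h3e and Hist2h3c1 had the higher estimate under control siRNA, and Hist1h3g under YAP/TAZ siRNA.

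Hist1h3c was at 1.90, 2.57 and 1.44 FPKM in heated and 0.632, 0.436 and 0.283 FPKM in unheated YAP/TAZ siRNA libraries, and at 1.53 and 1.67 FPKM in heated and 0.774, 1.16 and 0.506 FPKM in unheated control libraries. The groups did not overlap under either siRNA. It rose by 1.02 ± 0.17 (adjusted p = 0.000988) under YAP/TAZ siRNA and by 0.53 ± 0.19 (adjusted p = 0.0378) under control siRNA. The second call was lost without heated control replicate 1 (0.57) or 3 (0.49), unheated control replicate 1 (0.53) or 3 (0.41), heated YAP/TAZ replicate 1 (0.53) or unheated YAP/TAZ replicate 2 (0.53). Hist1h3a, the lowest tested member, was at 0.231 to 1.14 FPKM in heated and 0 to 0.10 FPKM in unheated YAP/TAZ siRNA libraries, and at 0.642 and 1.43 FPKM in heated and 0.0853 to 0.431 FPKM in unheated control libraries. It rose by 0.65 ± 0.21 (adjusted p = 0.0277) and 0.68 ± 0.23 (adjusted p = 0.0367). The Hist1h3a call under YAP/TAZ siRNA was lost without heated YAP/TAZ replicate 1 (0.46) or 3 (0.64) or any unheated YAP/TAZ replicate (0.62 to 0.69). Under control siRNA it was lost without heated control replicate 1 (0.40), unheated control replicate 2 (0.68) or 3 (0.58) or unheated YAP/TAZ replicate 1 (0.68).

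**Figure D2:**
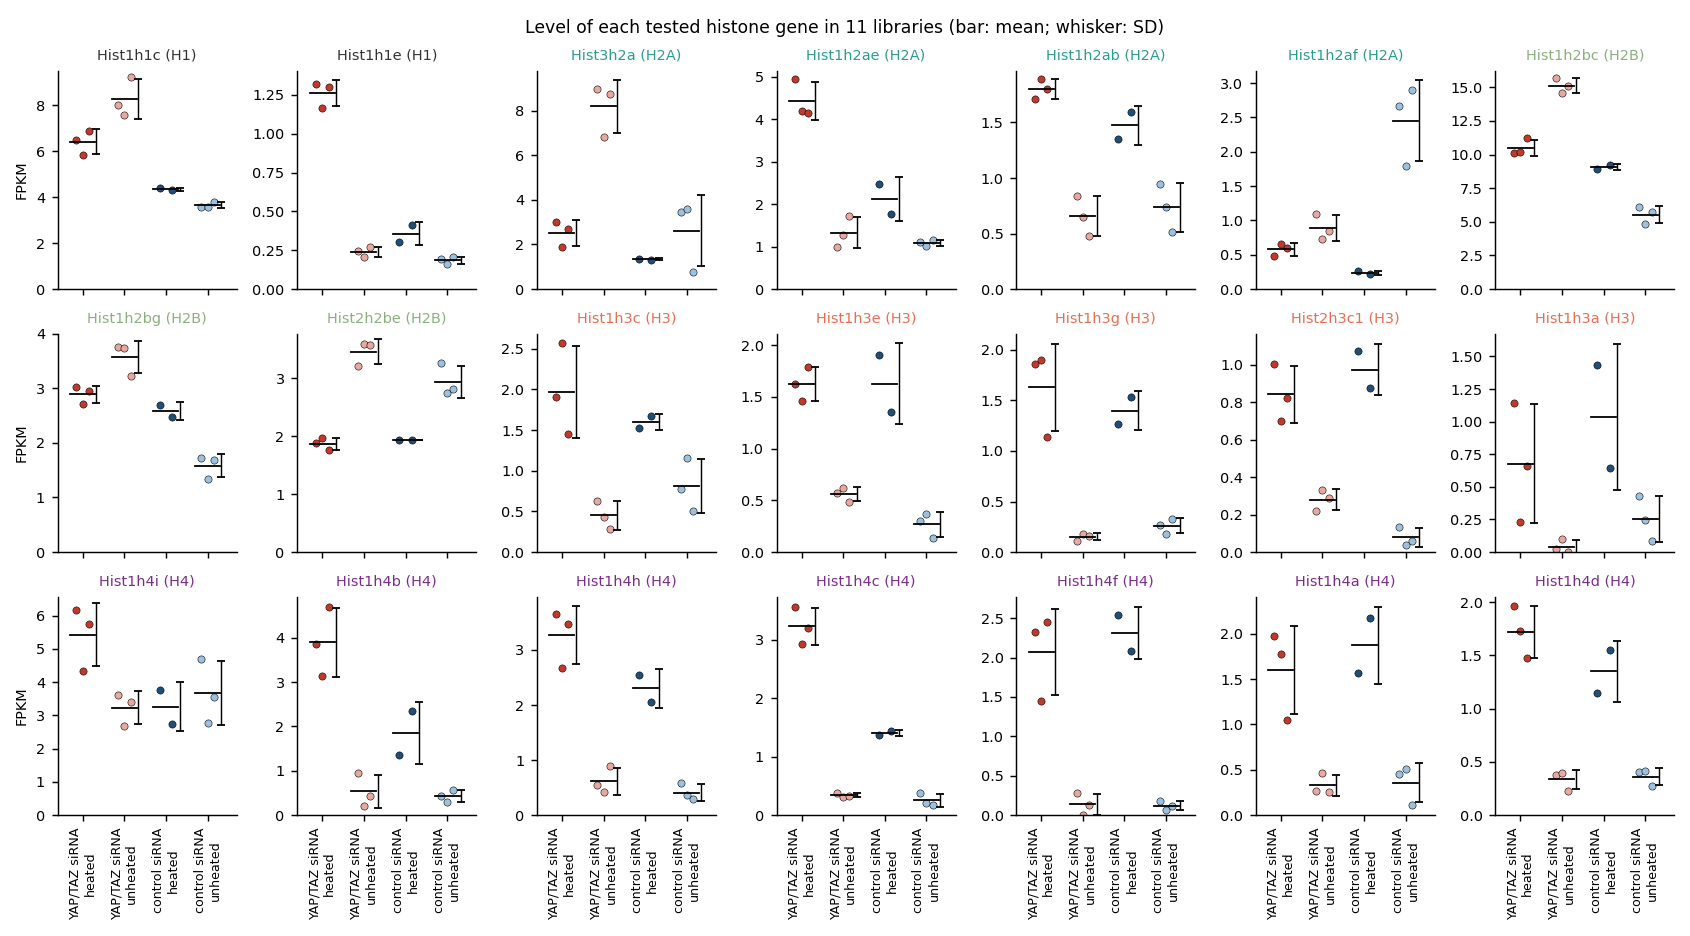
FPKM (vertical axis, from 0) of each of the 21 tested histone genes in the 11 libraries, by group along the horizontal axis and ordered by type; points are libraries, bars are means and whiskers are SD. The tested H3 genes and the tested H4 genes except Hist1h4i are higher in every heated library than in any unheated one under the same siRNA, whereas Hist1h1c, Hist3h2a, Hist1h2bc and Hist1h2bg peak in unheated YAP/TAZ siRNA cells. Those H3 and H4 genes passed the filter through heated libraries alone.

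The 3 tested H2B genes, whose product pairs with H2A, fell with heat under YAP/TAZ siRNA, and all 3 had passed the filter in unheated libraries too. The other 16 H2B genes summed to 3.17, 2.85 and 3.703 FPKM in heated and 1.76, 1.43 and 1.92 FPKM in unheated YAP/TAZ siRNA libraries. Without a filter 2 of 18 H2B genes rose under YAP/TAZ siRNA (Hist1h2bb by 0.76 and Hist1h2bh by 0.31) and 2 fell (Hist1h2bc and Hist2h2be), against 8.78% and 14.0% of all genes. Hist1h2bc (chr13:23684199-23692908, plus strand), the highest member, was at 10.1, 10.2 and 11.2 FPKM in heated and 15.7, 14.6 and 15.1 FPKM in unheated YAP/TAZ siRNA libraries. Its control siRNA levels were 8.91 and 9.25 FPKM with heat and 6.06, 4.82 and 5.69 FPKM without. The 4 groups did not overlap. It fell by 0.49 ± 0.07 under YAP/TAZ siRNA (adjusted p = 0.000735) and rose by 0.63 ± 0.08 under control siRNA (adjusted p = 0.000222), and the difference between the responses was −1.12 ± 0.11 (adjusted p = 0.00011). Hist1h2bg was at 3.02, 2.71 and 2.94 FPKM in heated and 3.76, 3.74 and 3.23 FPKM in unheated YAP/TAZ siRNA libraries, against 2.70 and 2.48 FPKM in heated and 1.73, 1.34 and 1.68 FPKM in unheated control libraries. Its responses had opposite signs too, −0.23 ± 0.08 (adjusted p = 0.034) and 0.48 ± 0.09 (adjusted p = 0.00168), and differed by −0.71 ± 0.12 (adjusted p = 0.00171). The fall of Hist1h2bg was small and its call was lost without any 1 heated YAP/TAZ replicate (−0.26 to −0.20) and without unheated YAP/TAZ replicate 1 (−0.20) or 2 (−0.21), whereas the difference was called in every fit that left out 1 library.

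Hist2h2be was the tested member that fell under both siRNAs. It was at 1.88, 1.97 and 1.76 FPKM in heated and 3.21, 3.59 and 3.57 FPKM in unheated YAP/TAZ siRNA libraries, and at 1.94 and 1.94 FPKM in heated and 3.26, 2.74 and 2.81 FPKM in unheated control libraries. The falls were −0.63 ± 0.07 (adjusted p = 0.000116) and −0.42 ± 0.08 (adjusted p = 0.00142), and their difference was not called (−0.21 ± 0.10, adjusted p = 0.125).

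The 4 tested H2A genes did not share a direction. Hist1h2ae was at 4.94, 4.18 and 4.14 FPKM in heated and 0.987, 1.26 and 1.71 FPKM in unheated YAP/TAZ siRNA libraries, against 2.48 and 1.76 FPKM in heated and 1.10, 1.02 and 1.16 FPKM in unheated control libraries. It rose by 1.23 ± 0.13 (adjusted p = 9.29e-05) and 0.57 ± 0.14 (adjusted p = 0.00816), and more under YAP/TAZ siRNA (difference 0.67 ± 0.19, adjusted p = 0.0213). The rise under control siRNA was not called without heated control replicate 1 (0.40), and the difference was not called without heated control replicate 3 (0.50). Hist1h2ab was at 1.71, 1.90 and 1.80 FPKM in heated and 0.835, 0.653 and 0.474 FPKM in unheated YAP/TAZ siRNA libraries, and at 1.35 and 1.60 FPKM in heated and 0.949, 0.740 and 0.515 FPKM in unheated control libraries. Hist1h2ab passed the filter through heated libraries alone. It rose by 0.77 ± 0.11 (adjusted p = 0.00051) and 0.52 ± 0.12 (adjusted p = 0.00632), the second lost without heated control replicate 3 (0.45).

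Among the tested members, 1 passed the filter through unheated libraries alone, so its calls below are partly set by the filter. This member, Hist1h2af, was highest in unheated control cells. It was at 0.476, 0.652 and 0.603 FPKM in heated and 1.09, 0.726 and 0.849 FPKM in unheated YAP/TAZ siRNA libraries, and at 0.260 and 0.216 FPKM in heated and 2.66, 1.79 and 2.91 FPKM in unheated control libraries. It fell by 1.47 ± 0.14 with heat under control siRNA (adjusted p = 3.09e-05), while under YAP/TAZ siRNA its change was −0.26 ± 0.13 (adjusted p = 0.12, called without unheated control replicate 2), and the 2 responses differed by 1.21 ± 0.19 (adjusted p = 0.00126). Hist3h2a, on chromosome 11, was at 2.99, 1.87 and 2.68 FPKM in heated and 8.97, 6.84 and 8.77 FPKM in unheated YAP/TAZ siRNA libraries, against 1.36 and 1.29 FPKM in heated and 3.47, 3.58 and 0.767 FPKM in unheated control libraries. Unheated control replicate 3 stood apart from the other 2 for this gene. Hist3h2a fell by 1.39 ± 0.32 with heat under YAP/TAZ siRNA (adjusted p = 0.00634), and its change under control siRNA was −0.51 ± 0.36 (adjusted p = 0.276). Without unheated control replicate 3 that change was −0.96 and was called (adjusted p = 0.00186). It overlaps Trim17 on the same strand, which was at 0.0318 to 0.513 FPKM.

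H1 genes encode the linker histones that bind where DNA enters and leaves the nucleosome. Hist1h1c (chr13:23738808-23740367, plus strand) was at 6.51, 5.83 and 6.90 FPKM in heated and 8.02, 7.57 and 9.23 FPKM in unheated YAP/TAZ siRNA libraries, and at 4.39 and 4.31 FPKM in heated and 3.56, 3.58 and 3.81 FPKM in unheated control libraries. It fell by 0.32 ± 0.08 with heat under YAP/TAZ siRNA (adjusted p = 0.00746), its change under control siRNA was 0.20 ± 0.09 (adjusted p = 0.0802, called without unheated YAP/TAZ replicate 3), and the responses differed by −0.52 ± 0.12 (adjusted p = 0.00703). Hist1h1e was at 1.32, 1.16 and 1.303 FPKM in heated and 0.243, 0.206 and 0.270 FPKM in unheated YAP/TAZ siRNA libraries, against 0.305 and 0.409 FPKM in heated and 0.195, 0.160 and 0.204 FPKM in unheated control libraries. Heated YAP/TAZ siRNA libraries were far above all others. Hist1h1e passed the filter through them alone, so its calls that involve them are partly set by the filter. On the same strand Hist1h1e overlaps Gm11398 (0.000997 to 0.373 FPKM) and Hist1h2be (0.0302 to 0.325 FPKM), which reach levels near its own in the other libraries. It rose by 0.87 ± 0.06 under YAP/TAZ siRNA (adjusted p = 1.65e-05) and by 0.19 ± 0.07 under control siRNA (adjusted p = 0.0456), with a difference of 0.67 ± 0.09 (adjusted p = 0.000675). The small rise of Hist1h1e under control siRNA was called in 2 of the 11 fits that left out 1 library, those without heated YAP/TAZ replicate 2 and without heated control replicate 1 (0.14 to 0.25 over the 11), and it reversed to −0.047 under quantile normalization. Over the 21 members the difference between the heat responses was called for 7, higher under YAP/TAZ siRNA for 4 (24.6% of all tested genes) and lower for 3 (13.4% of all).

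**Figure D3:**
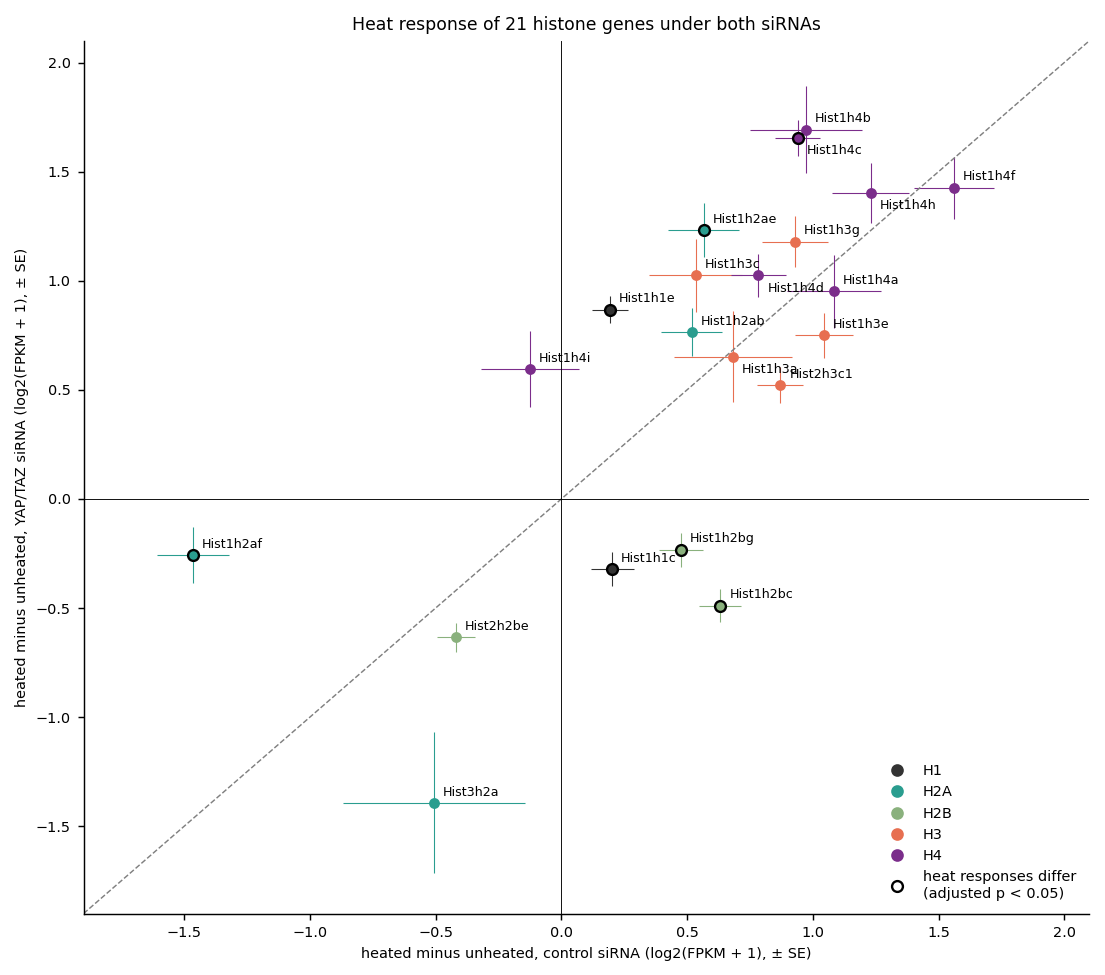
Heat response of the 21 tested histone genes as the difference of log2(FPKM + 1), heated minus unheated, under YAP/TAZ siRNA (vertical axis) against control siRNA (horizontal axis); points are genes coloured by type, whiskers are standard errors, the dashed line marks equal responses and black rings mark the 7 genes whose responses differed. H3 and H4 genes lie in the upper part of the plot, and Hist1h2bc, Hist1h2bg and Hist1h1c lie below 0 on the vertical axis only. The H3 and H4 genes except Hist1h4i passed the filter through heated libraries alone.

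Without heat, YAP/TAZ siRNA raised 6 of the 21 members (27.1% of all tested genes rose) and lowered 1 (21.9% of all), with a median of 0.07 against 0.02 over all genes. The 4 larger rises were those of Hist3h2a (1.47 ± 0.32, adjusted p = 0.00445), Hist1h2bc (1.31 ± 0.07, adjusted p = 1.59e-06), Hist1h1c (0.99 ± 0.08, adjusted p = 8.23e-06) and Hist1h2bg (0.82 ± 0.08, adjusted p = 2.76e-05). In each of these every unheated YAP/TAZ siRNA library exceeded every unheated control library. The smaller rises of Hist1h3e (0.30 ± 0.10, adjusted p = 0.0365) and Hist2h3c1 (0.25 ± 0.08, adjusted p = 0.0318) were lost in several fits. For Hist1h3e these were the fits without unheated control replicate 1 (0.32) or 3 (0.22), unheated YAP/TAZ replicate 1 (0.29) or 2 (0.27) or heated YAP/TAZ replicate 1 (0.30). For Hist2h3c1 they were those without unheated control replicate 2 (0.22) or 3 (0.23) or unheated YAP/TAZ replicate 2 (0.22) or 3 (0.24). Hist1h2af fell by 0.86 ± 0.13 (adjusted p = 0.000408). It reached 1 FPKM in every unheated control library and passed the filter through unheated libraries alone. This call is therefore partly set by the filter. No H4 gene was called, with changes between −0.13 and 0.19.

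After heat, YAP/TAZ siRNA raised 6 of the 21 members (36.3% of all tested genes) and lowered 0 (17.9% of all), with a median of 0.19 against 0.13. At an unadjusted p under 0.05 in the same fit, 8 members differed, as did 8 without heat. No share of all genes was computed for these counts, so nothing about the members is read from them. The 6 were Hist1h4c (0.81 ± 0.09, adjusted p = 7.81e-05), Hist1h2ae (0.80 ± 0.14, adjusted p = 0.00108), Hist1h4b (0.79 ± 0.22, adjusted p = 0.014), Hist1h1e (0.74 ± 0.07, adjusted p = 2.87e-05), Hist1h4i (0.59 ± 0.19, adjusted p = 0.028) and Hist1h1c (0.47 ± 0.09, adjusted p = 0.00148). Hist1h1e passed the filter through heated YAP/TAZ siRNA libraries alone, so its call and the count of 6 are partly set by the filter. The call of Hist1h4b was lost without heated control replicate 1 (0.54), and that of Hist1h4i without heated control replicate 3 (0.42) or heated YAP/TAZ replicate 1 (0.51) or 3 (0.55). Of the members raised without heat, Hist1h1c was also raised after heat, while Hist1h2bc (0.19 ± 0.08, adjusted p = 0.0852, called without unheated control replicate 2) and Hist1h2bg (0.12 ± 0.09, adjusted p = 0.293) were not called.

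The annotated 3′ ends were set beside the levels. Taking the transcript with the longest 3′ UTR, the sequence after the hairpin ran on for more than 100 bases in 23 of the 67 coding members and for 100 bases or less in 22, while 9 had a UTR without a fully paired hairpin and 13 had no annotated UTR. Of the 9, Hist1h2af and Hist1h2ah have only 1 and 2 annotated bases after the stop codon, too few to hold a hairpin. Each of the 21 tested members had at least 1 annotated base there. Of the 5 members at 1 FPKM or more in all libraries, Hist1h1c (840 bases), Hist1h4i (330) and Hist1h2bg (155) ran on past the hairpin, Hist1h2bc and Hist2h2be had no fully paired hairpin in the annotated transcript used, and none ended within 100 bases of it. A poly(A) signal (AATAAA or ATTAAA) lay within 50 bases of the annotated end in 8 of the 21 tested members, among them Hist1h1c, Hist2h2be and Hist1h4i, and in 8 of the 46 untested coding members. A match or its absence describes the annotation and not the RNA in these cells.

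**Figure D4:**
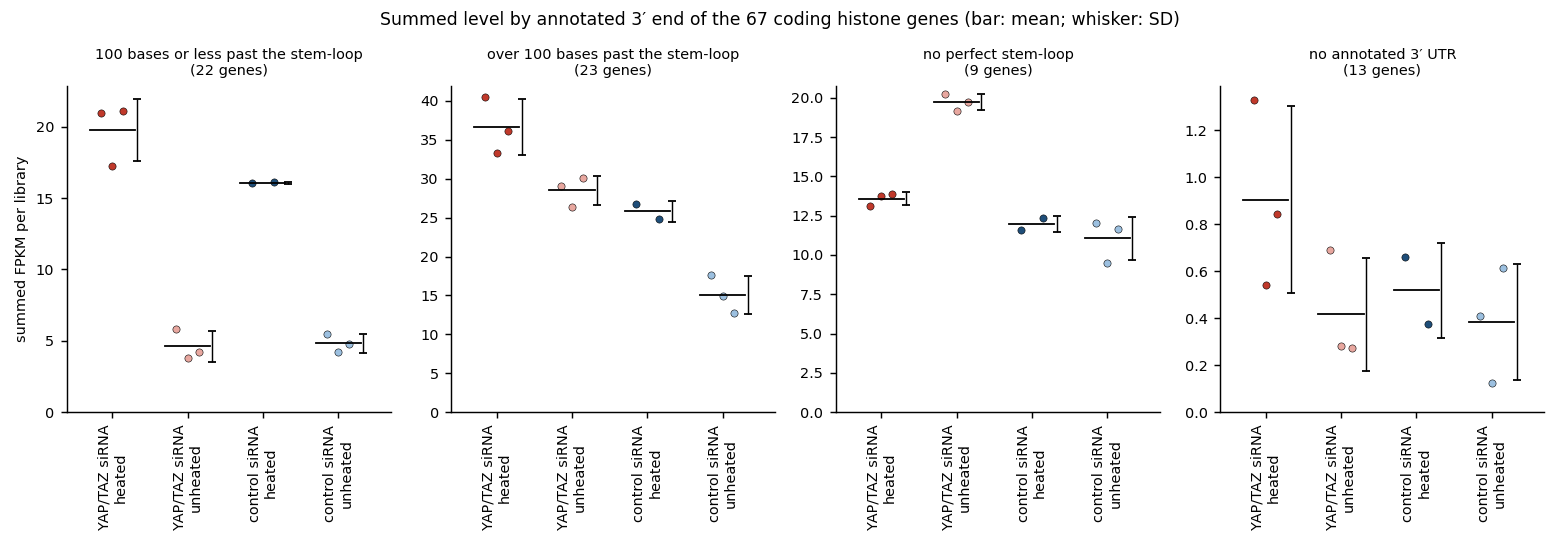
Summed FPKM per library (vertical axis) of the 67 coding histone genes by annotated 3′ end, from left to right 22 genes that end within 100 bases of the hairpin, 23 that run on for longer, 9 with no fully paired hairpin and 13 without an annotated 3′ UTR; points are libraries in 4 groups, bars are means and whiskers are SD. The first class is at 17.3 to 21.1 FPKM in heated and 3.80 to 5.83 FPKM in unheated YAP/TAZ siRNA libraries, and the third is highest in unheated YAP/TAZ siRNA libraries.

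The short class, which ends within 100 bases of the hairpin, summed to 19.8 ± 2.17 FPKM (SD, n = 3) in heated and 4.62 ± 1.07 FPKM (SD, n = 3) in unheated YAP/TAZ siRNA libraries. Under control siRNA it summed to 16.1 ± 0.0626 FPKM (SD, n = 2) with heat and 4.82 ± 0.655 FPKM (SD, n = 3) without. Without a filter, 9 of 20 of its members rose with heat under YAP/TAZ siRNA (8.78% of all genes did), 8 of 20 rose under control siRNA (13.9% of all) and none fell. Its tested members (Hist1h2ab, Hist1h3a, Hist1h3c, Hist1h3g, Hist1h4b, Hist1h4f and Hist1h4h) had all passed the filter through heated libraries alone. In the class that runs on past the hairpin, without a filter, 14 of 23 rose and 2 fell (14.0% of all genes fell) under YAP/TAZ siRNA. Under control siRNA 16 of 23 rose and 0 fell (15.6% of all genes fell). The class without a fully paired hairpin summed to 13.6 ± 0.413 FPKM in heated and 19.7 ± 0.519 FPKM in unheated YAP/TAZ siRNA libraries (SD, n = 3 each), and to 11.6 and 12.3 FPKM in the 2 heated and 11.1 ± 1.38 FPKM (SD, n = 3) in the unheated control libraries, most of it from Hist1h2bc. These classes were formed after values had been seen and are given as a description.

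RefSeq promoter windows (250 bases before to 50 after the start, GRCm38.p6) were at hand for 62 of the 70 members. On either strand, CCAAT was present in every window of types H1, H2A, H2B and H3 (6, 18, 16 and 10 windows) but in 3 of 12 of type H4, which makes 85.5% of the members' windows against 37.4% of all 32851, and TATAAA in 35 of 62 (56.5%, against 13.6%). The octamer ATTTGCAT, to which POU factors bind, was found in 7 H2A and 7 H2B windows and in no other type (22.6% of members, against 1.74% of all windows). GGAATG, the core bound by the TEAD partners of YAP and TAZ, was in 3 windows (4.84%, against 14.7%), those of Hist1h3d, Hist1h4h and Hist1h4c. A heat shock element, searched as GAANNTTCNNGAA, was also in 3 windows (4.84%, against 0.603%), those of Hist1h2ac, Hist1h2ad and Hist1h2bf, none of which was tested. Hist1h2ad and Hist1h2bf are divergent neighbours, so their windows can share bases and the same site can be counted in both. Other neighbouring H2A and H2B genes can share bases likewise, so the windows are not independent. Letters in a window are a description of sequence only.

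The upstream 250 bases of 2 members are shown as examples, Hist1h2bg for its divergent neighbour and Hist1h4c for its GGAATG match. Hist1h4c is also among the 3 of 12 H4 windows with CCAAT. Any bearing of these letters on the levels was not tested. Capitals mark the CCAAT box, the TATAAA box, the octamer and GGAATG on either strand. Hist1h2bg lies at chr13:23571150-23571399 on the plus strand and Hist1h4c at chr13:23698459-23698708 on the minus strand.
Hist1h2bg: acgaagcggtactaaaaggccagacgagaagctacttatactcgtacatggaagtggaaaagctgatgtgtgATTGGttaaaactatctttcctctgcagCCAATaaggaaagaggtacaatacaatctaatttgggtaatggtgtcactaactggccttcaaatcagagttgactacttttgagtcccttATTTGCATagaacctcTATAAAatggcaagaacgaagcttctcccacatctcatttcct
Hist1h4c: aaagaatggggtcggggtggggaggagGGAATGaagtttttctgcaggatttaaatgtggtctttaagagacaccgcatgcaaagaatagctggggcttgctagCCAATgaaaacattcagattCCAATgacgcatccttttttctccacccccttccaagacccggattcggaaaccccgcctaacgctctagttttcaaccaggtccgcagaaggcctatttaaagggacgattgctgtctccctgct
The Hist1h2bg window holds a CCAAT match on each strand, the octamer and TATAAA. The start of Hist1h2ae, on the other strand, lies 180 bases before the Hist1h2bg start, so the 2 genes are divergent and their promoter windows share 279 of 300 bases. The level of Hist1h2bg over that of Hist1h2ae was 0.610, 0.649 and 0.711 in heated and 3.81, 2.95 and 1.89 in unheated YAP/TAZ siRNA libraries, against 1.09 and 1.41 in heated and 1.58, 1.32 and 1.46 in unheated control libraries. The ratio was below 1 only in the 3 heated YAP/TAZ siRNA libraries.

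Genes that act on histone RNA and in S phase were set beside the members. The list of 30 S phase genes was chosen with earlier results of these data known, and is given as counts. With heat under YAP/TAZ siRNA 18 of 30 rose (18.6% of all tested genes did) and 1 fell (31.7% of all), with a median of 0.20. Under control siRNA 0 rose (12.4% of all) and 25 fell (36.9% of all), with a median of −0.54. The difference between the responses was higher under YAP/TAZ siRNA for 27 of 30 (24.6% of all), and without heat YAP/TAZ siRNA lowered 28 of 30 (21.9% of all, median of the 30 −0.58). Rrm2, a subunit of ribonucleotide reductase, was at 65.8, 58.7 and 64.3 FPKM in heated and 76.5, 82.6 and 81.3 FPKM in unheated YAP/TAZ siRNA libraries, against 68.0 and 67.2 FPKM in heated and 182, 192 and 191 FPKM in unheated control libraries. Unheated control libraries were the highest by far, and Rrm2 fell with heat by 1.47 ± 0.06 under control siRNA (adjusted p = 2.2e-07). Pcna, the clamp of the replication polymerases, rose by 0.25 ± 0.06 with heat under YAP/TAZ siRNA (adjusted p = 0.0105) and fell by 0.75 ± 0.07 under control siRNA (adjusted p = 2.92e-05). Uhrf1 (0.21 ± 0.04 and −1.17 ± 0.05) and the helicase subunit Mcm3 (0.16 ± 0.03 and −0.57 ± 0.03) likewise rose under YAP/TAZ siRNA and fell under control siRNA. In those heated control libraries the H3 and H4 sums over all members were above the unheated ones, as given above. In bulk RNA a smaller share of cells in S phase and less RNA per cell cannot be told apart.

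Of 21 tested genes for the 3′ end processing and transcription of histone RNA, 9 rose and 5 fell with heat under YAP/TAZ siRNA, and 0 rose and 10 fell under control siRNA. Of all tested genes 18.6% rose and 31.7% fell under YAP/TAZ siRNA, and 12.4% rose and 36.9% fell under control siRNA. Slbp was at 12.6, 12.6 and 12.7 FPKM in heated and 10.95, 10.6 and 11.03 FPKM in unheated YAP/TAZ siRNA libraries, and at 8.55 and 8.58 FPKM in heated and 14.1, 14.9 and 13.9 FPKM in unheated control libraries. It rose by 0.20 ± 0.04 under YAP/TAZ siRNA (adjusted p = 0.0034) and fell by 0.68 ± 0.05 under control siRNA (adjusted p = 3.82e-06), so that the lowest Slbp levels stood in the heated control cells, beside H3 and H4 sums above the unheated ones. Npat, the cyclin E target that activates histone transcription, fell under both (−0.72 ± 0.08, adjusted p = 0.000139, and −0.49 ± 0.09, adjusted p = 0.00143). Coil, the Cajal body protein coilin, and Upf1, a helicase that takes part in histone RNA decay, also fell under both (Coil −0.41 ± 0.05 and −0.74 ± 0.06, Upf1 −0.42 ± 0.05 and −0.48 ± 0.06). YAP/TAZ siRNA without heat lowered 15 of the 21 (21.9% of all tested genes) and raised 0 (27.1% of all).

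Of 18 histone chaperones, 6 rose (18.6% of all tested genes did) and 5 fell (31.7% of all) with heat under YAP/TAZ siRNA. Under control siRNA 0 rose (12.4% of all) and 11 fell (36.9% of all). Chaf1a, the large subunit of the assembly factor CAF-1, rose by 0.17 ± 0.04 under YAP/TAZ siRNA and fell by 1.07 ± 0.05 under control siRNA. Nasp, which holds H1 and H3–H4, changed by −0.20 ± 0.08 (adjusted p = 0.0692) under YAP/TAZ siRNA and fell by 1.63 ± 0.09 under control siRNA. Ssrp1, a FACT subunit, rose by 0.48 ± 0.04 under YAP/TAZ siRNA and changed by 0.01 ± 0.04 under control siRNA. Among the 9 tested genes listed as replication-independent histones, most of which carry poly(A) tails and are made throughout the cycle, 2 rose and 2 fell under YAP/TAZ siRNA. Under control siRNA 1 rose and 3 fell. These counts were close to the shares of all tested genes given above. H2afx, whose RNA can end at a stem-loop or a poly(A) tail, was at 16.2, 15.3 and 15.5 FPKM in heated and 27.0, 24.7 and 28.6 FPKM in unheated YAP/TAZ siRNA libraries, against 12.6 and 11.8 FPKM in heated and 47.4, 44.6 and 47.4 FPKM in unheated control libraries. It fell under both siRNAs, by 0.73 ± 0.06 and 1.85 ± 0.07. The linker histone gene H1f0 fell by 0.40 ± 0.05 and 1.41 ± 0.06, H2afj rose by 0.48 ± 0.08 and 0.75 ± 0.09, and H2afz rose by 0.38 ± 0.09 under YAP/TAZ siRNA and was not called under control siRNA (0.00 ± 0.10), though the difference itself missed the threshold (adjusted p = 0.0609). The genes of H3.3, H3f3a (0.02 ± 0.12 and 0.08 ± 0.13) and H3f3b (−0.04 ± 0.07 and −0.20 ± 0.08), were not called with heat.

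**Figure D5:**
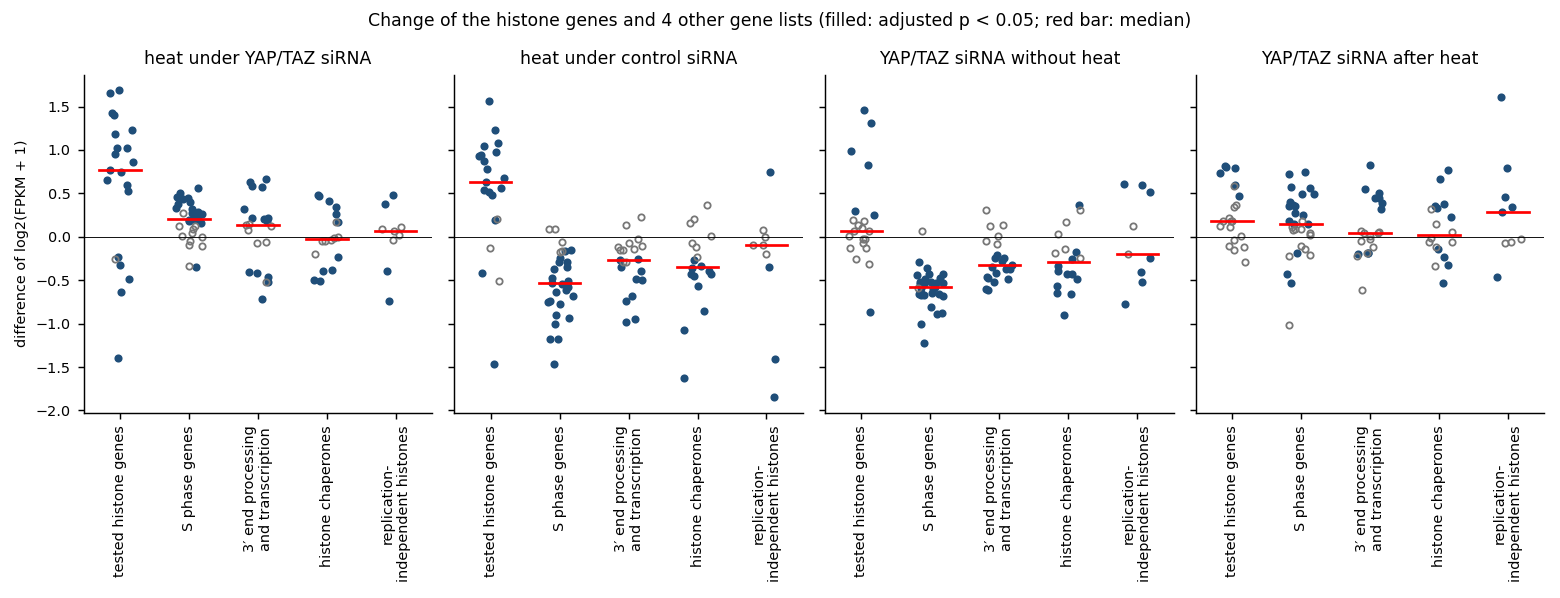
Differences of log2(FPKM + 1) (vertical axis) for the 21 tested histone genes and 4 other gene lists in 4 comparisons; each point is a gene, filled where the adjusted p was under 0.05, and red bars are medians. With heat under control siRNA the histone median is 0.63 and that of the S phase genes −0.54. Of the 21 histone genes 13 passed the filter through heated libraries alone, and without a filter the histone median is 0.14. For YAP/TAZ siRNA without heat the S phase median is −0.58 and the histone median 0.07.

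Other RNAs without a poly(A) tail were looked at beside the heat changes. Of 16 listed, 9 were at 0 in every library and 3 were tested. Rmrp, the RNA of RNase MRP, was at 46.2 to 71.3 FPKM in heated and 0.363 to 0.785 FPKM in unheated YAP/TAZ siRNA libraries, and at 8.48 and 10.7 FPKM in heated and 0.162 to 0.186 FPKM in unheated control libraries. It rose by 5.14 ± 0.16 and 3.17 ± 0.18, and Rpph1, the RNA of RNase P, by 4.07 ± 0.18 and 2.88 ± 0.20. Both rose more under YAP/TAZ siRNA (differences 1.98 ± 0.24, adjusted p = 0.000334, and 1.19 ± 0.27, adjusted p = 0.00823). Rmrp and Rpph1 passed the filter through heated libraries alone, so these calls are partly set by the filter. Rnu73b, the gene of a small nucleolar RNA, fell under YAP/TAZ siRNA (−1.01 ± 0.23, adjusted p = 0.00621). Genes of small nucleolar RNAs together held 0.155% to 0.214% of the summed FPKM in heated and 0.173% to 0.212% in unheated YAP/TAZ siRNA libraries, and 0.156% and 0.218% in heated and 0.215% to 0.343% in unheated control libraries. Heated and unheated shares overlapped under both siRNAs. The number of genes above 0 was higher with heat, at 21534 to 21662 against 20632 to 20914 under YAP/TAZ siRNA and 23173 and 23242 against 20000 to 20365 under control siRNA. Of the 70 members, 55 to 58 were above 0 in heated and 52 to 55 in unheated YAP/TAZ siRNA libraries, and 54 and 57 in heated and 47 to 52 in unheated control libraries. The part of these shifts in the rise of the H3 and H4 genes was not tested.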

How the data were processed

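RNA of 11 libraries was read from 1 gene table. The authors deposited FPKM values (fragments per kilobase, scaled to library size) and no read counts. Per the submitters' processing notes, the tools included HISAT2, StringTie, DESeq2, SAMtools and Trimmomatic 0.36, whose roles are not stated. Settings, annotation release and strandedness were not given in the sources used here. Whole reads could not be recovered, so no count model was run. Ensembl identifiers were matched to GENCODE M21 symbols (54038 of 54104).

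Values were analysed as log2(FPKM + 1), pseudocount 1, in genes that reached 1 FPKM in 2 or more libraries. A limma 3.58.1 fit (R 4.3.3, empirical Bayes with trend) held a mean for each of the 4 groups over all 11 libraries. P-values were adjusted over all tested genes within each of 5 comparisons (Benjamini-Hochberg, threshold 0.05). The fit was tested on simulated data. All tested members could be named; library values were given for the 3 highest of each type and the 6 of smallest adjusted p in each comparison, and 3 genes a list were named by moderated F, with 9 fixed genes. The members and lists were chosen with earlier results of these data known. Alternatives were pseudocounts 0.1 and 0.5, other filters and scalings, a replicate block and leaving out each library. Sequences came from GENCODE M21 transcripts (GRCm38) and RefSeq promoters (GRCm38.p6). Python 3.11.15, pandas 2.3.3, numpy 2.4.6 and matplotlib 3.10.9 were used.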

Additional observations from a re-analysis of the deposited data

Results flagged for a closer look

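For 7 members the heat response under YAP/TAZ siRNA differed from that under control siRNA by the interaction term of the limma fit (differences of log2 changes, adjusted p under 0.05). Of all tested genes 24.6% were called higher and 13.4% lower for this difference, so the share of called members was not above that of all genes. The difference was positive for Hist1h2af (1.21), Hist1h4c (0.72), Hist1h1e (0.67) and Hist1h2ae (0.67). It was negative for Hist1h2bc (−1.12), Hist1h2bg (−0.71) and Hist1h1c (−0.52). Hist1h4c and Hist1h1e had passed the filter through heated libraries alone, and Hist1h2af through unheated libraries alone. Without heat, YAP/TAZ siRNA against control siRNA gave −0.86 for Hist1h2af, 0.10 for Hist1h4c, 0.06 for Hist1h1e, 0.14 for Hist1h2ae, 1.31 for Hist1h2bc, 0.82 for Hist1h2bg and 0.99 for Hist1h1c; these unheated differences enter the difference of responses by construction. No test for single outlying libraries was run in these groups of 2 or 3 libraries, and each library was left out in turn.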

How the results depend on the processing

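Of 58 calls of single members over the 5 comparisons, 42 held under every alternative that could be fitted and 16 were lost or reversed under at least 1; the reversed one was Hist1h1e with heat under control siRNA (0.19 as reported, −0.047 under quantile normalization). Counts of called members moved by over 1.5 times where the filter changed, because other genes were tested, and once with scaling. Without a filter 23 members rose with heat under YAP/TAZ siRNA and 27 under control siRNA, and 1 was lower under YAP/TAZ siRNA after heat, against 15, 16 and 0. At 5 FPKM 4 members were tested; 1 rose and 3 fell with heat under YAP/TAZ siRNA, 1 rose and 0 fell under control siRNA, the difference between the responses was higher for 0, and YAP/TAZ siRNA raised 3 and lowered 0 without heat and raised 2 after heat. Under quantile normalization 3 members fell with heat under YAP/TAZ siRNA, against 5; the cause was not tested. Leaving out 1 library at a time, with a lone heated control library assumed to vary like the other groups, left 13 to 15 higher and 4 to 6 lower with heat under YAP/TAZ siRNA, 12 to 16 and 2 to 3 under control siRNA, 3 to 5 and 3 to 4 for the difference, 4 to 6 and 1 without heat, and 5 to 8 and 0 after heat.

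Nothing in the labels says what the replicate numbers mark, so whether they pair the samples is not known. Correlations between the deviations of libraries with the same number ran from −0.11 to 0.13, and with different numbers from −0.18 to 0.16. In groups of 2 or 3 libraries the deviations depend on each other, so these values cannot settle the question. With the replicate number as a block, 15 members rose and 5 fell with heat under YAP/TAZ siRNA, 15 and 3 under control siRNA, 6 and 3 for the difference, 6 and 1 without heat, and 9 and 0 after heat.

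Scaling moved the median of all genes by over 0.1 (from −0.16 with heat under control siRNA to −0.03 with median-of-ratios scaling, and from −0.09 to −0.22 under YAP/TAZ siRNA with 1 total per library). All-gene calls with heat, 2347 higher and 3999 lower under YAP/TAZ siRNA and 1560 and 4654 under control siRNA, became 1417 and 5794, and 1318 and 5359, with 1 total per library, and 3055 and 2955, and 2469 and 3101, with median-of-ratios scaling, and 2729 and 2871, and 2337 and 3252, with quantile normalization. The all-gene split also moved for YAP/TAZ siRNA after heat (4589 and 2266, against 3365 and 3153 with median-of-ratios scaling and 3707 and 2941 with quantile normalization).

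Log2 ratios of summed levels moved by more than the spread between replicates in these cases. With median-of-ratios scaling the heat ratio under control siRNA was 0.78 for H1 (0.61 as reported), 0.17 for H2A (0.00), 0.70 for H2B (0.53) and 0.96 for all members (0.80), the heat ratio under YAP/TAZ siRNA was 0.15 for H1 (0.05), and the ratio of the siRNAs after heat was 0.42 for H1 (0.56), 0.080 for H2B (0.22) and 0.25 for all (0.39). With 1 total per library the heat ratio under YAP/TAZ siRNA was −0.11 for H1 (a change of sign), −0.19 for H2A (−0.03), −0.53 for H2B (−0.37) and 0.25 for all (0.41), and the siRNA ratio after heat was 0.47 for H1. The H2A heat ratios were near 0 and changed sign between settings; the H3 and H4 heat ratios stayed at 1.18 to 2.23 when any 1 library was left out. Depth limits most members: 13 of the 21 tested passed the filter through heated libraries alone, and the lowest values lie within a few steps of 0.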
